A study of Mus musculus with 3 samples.

Results

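*Scarb1*, *Apoe*, *Lrp1*, *Abca1*, *Abcg1* and *Pltp* are genes by which lipoproteins are bound, taken up, remodeled or loaded with cholesterol. *Scarb2*, a lysosomal relative of *Scarb1*, was listed with them. These 7 genes were chosen by name, and all were found among the 27998 genes counted in non-cardiomyocytes (non-CMs) of the mouse heart. The non-CMs came from the ventricles of wild-type C57BL/6J JCL mice, and were measured by droplet-based single-cell RNA sequencing (scRNA-seq). The control heart was the healthy phase (0 weeks), and hearts 2 and 12 weeks after transverse aortic constriction (TAC) were the adaptive hypertrophy and heart failure phases. TAC, which narrows the aortic arch and loads the left ventricle with pressure, was performed on males 8 weeks old. Each phase was 1 library, so phase and library cannot be told apart, and whether a library pools several hearts is not stated. Whether the control had a sham operation is not stated, and CMs were removed before the libraries were made.

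Lipoproteins are particles of lipid and protein that carry cholesterol through blood and tissue fluid. Apolipoprotein E, the product of *Apoe*, is a ligand on such particles that binds the endocytic receptor LRP1, and scavenger receptor class B type 1, the product of *Scarb1*, passes cholesteryl ester from high-density lipoprotein (HDL) into cells without taking up the particle. In the other direction the transporters ABCA1 and ABCG1 pass cholesterol out of the cell to lipid-poor apolipoproteins and to HDL, and macrophages are known for both *Apoe* secretion and this efflux. *Scarb2* is a relative of *Scarb1* by sequence, but its product, LIMP-2, is a membrane protein of lysosomes.

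The 3 libraries held 3892, 2231 and 792 cells after filtering, with 12287823, 4465929 and 1712728 unique molecular identifiers (UMIs, 1 per captured transcript). The median cell had 2589, 1495 and 1434 UMIs, and the share of cells with over 10% mitochondrial UMIs was 5.04%, 9.32% and 17.2%. Cells were assigned by sums of marker genes, none of which is among the 7 genes, to endothelial cells (ECs; 1155, 1815 and 318 cells), fibroblasts (FBs; 1238, 99 and 197), mural cells (344, 55 and 36), blood cells (949, 196 and 183) and neural cells (52, 26 and 15), and 237 of 6915 cells stayed unassigned. Of the markers that made these gates, *Cdh5* had a UMI in 79.2% of ECs, *Col1a1* in 91.1% of FBs, *Myh11* in 86.4% of mural cells and *Tyrobp* in 85.8% of blood cells. Other markers of these lists were found in fewer cells, such as *Pdgfra* in 46.5% of FBs, *Ptprc* in 45.0% of blood cells and *Sox10* in 49.5% of neural cells. Neural cells also held *Col1a1* in 52.7% of cells, and mural cells held *Cdh5* in 20.7% and *Pecam1* in 24.8%. Macrophages within the blood class numbered 816, 97 and 42. Levels are counts-per-million (CPM), the UMIs of a gene over all UMIs summed across a class in a library, and every interval is an exact one at 95% that covers counting error only. With 1 library per phase no test between phases was possible. Of barcodes, 5 were shared between the libraries at 0 and 2 weeks, 1 between 0 and 12 weeks, and 3 between 2 and 12 weeks.

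The 7 genes divided the classes among themselves. In the healthy library *Scarb1* was highest in ECs, *Scarb2* and *Lrp1* in FBs, and *Apoe*, *Abca1* and *Pltp* in macrophages, while *Abcg1* was at like levels in ECs and macrophages. *Apoe* kept the order macrophages, neural cells, FBs, ECs and mural cells in all 3 libraries, with no overlap of the intervals of neighbors. *Lrp1* was highest in FBs in all 3 libraries, apart from the next class each time.

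**Figure D1:**
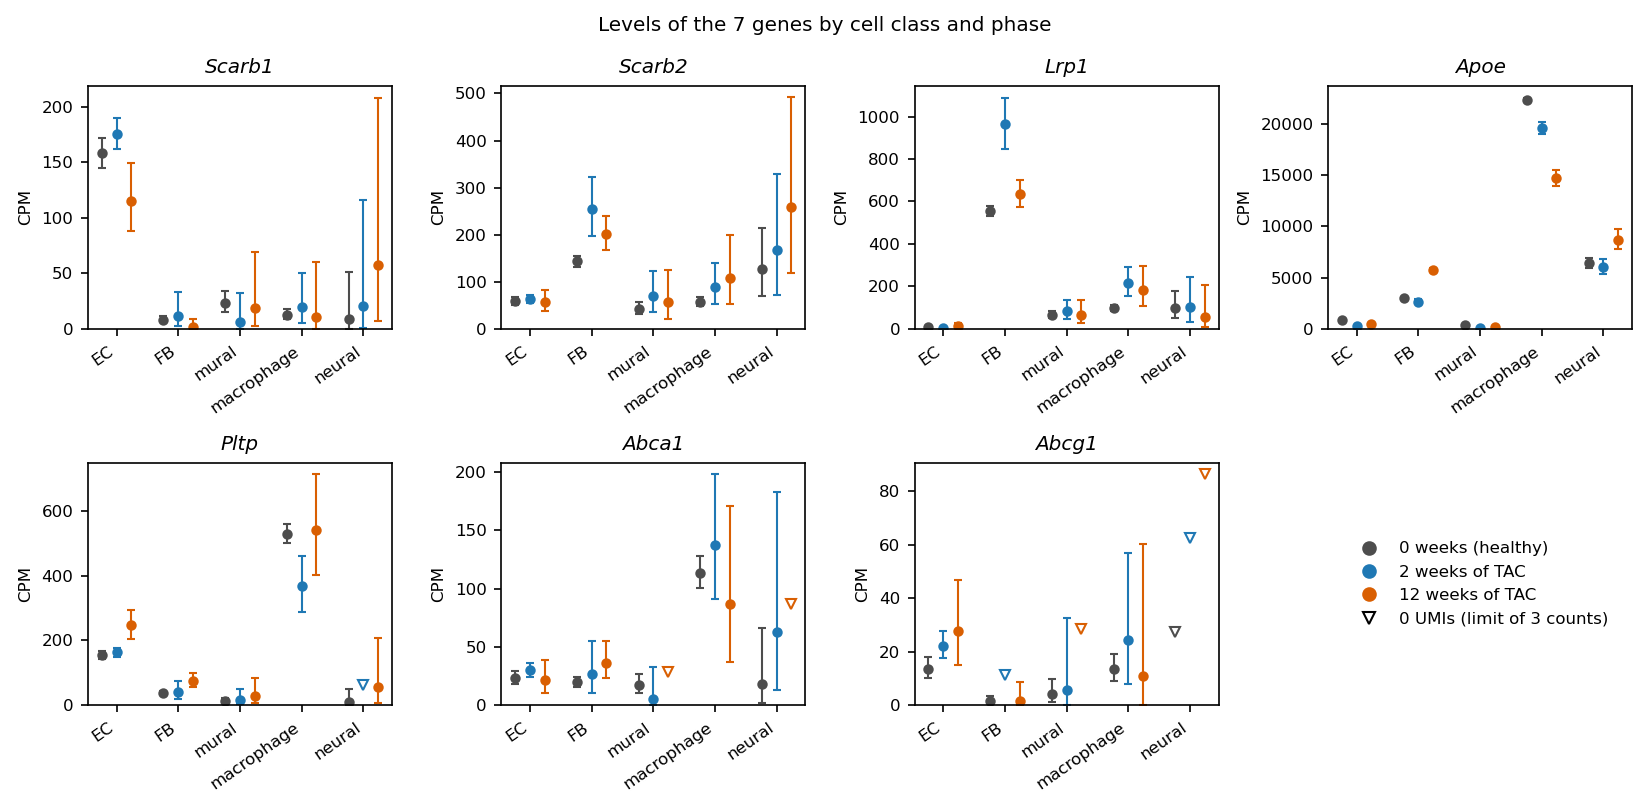
Levels of the 7 genes (CPM, linear axis) in each cell class at 0, 2 and 12 weeks, with points for the level of a class in 1 library and bars for exact Poisson 95% intervals. Open downward triangles mark 0 UMIs, drawn at the level that 3 UMIs would give. *Scarb1* is highest in ECs and *Apoe* in macrophages at every phase.

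Among the receptors, *Scarb1* (ENSMUSG00000037936, chromosome 5 from 125277087 to 125341094 of GRCm38, minus strand) was an EC gene. Its level in ECs was 158 CPM (145 to 172; 542 UMIs) at 0 weeks, 175 CPM (162 to 190; 605 UMIs) at 2 weeks, against 115 CPM (87.6 to 149; 58 UMIs) at 12 weeks. The intervals at 0 and 2 weeks overlapped, and the level at 12 weeks was the lowest. The ratio to 0 weeks was 1.11 (0.987 to 1.25) at 2 weeks and 0.731 (0.548 to 0.959) at 12 weeks, and the interval at 12 weeks lay below 1. In the same ECs erythroid markers summed to 93.5, 305 and 6729 CPM and CM markers to 633, 506 and 165 CPM, and their part was not tested. A *Scarb1* UMI was found in 30.0% of ECs at 0 weeks (median depth 2225 UMIs), 24.8% at 2 weeks (1477 UMIs) and 15.7% at 12 weeks (1306.5 UMIs). After each cell was thinned to 1000 UMIs these shares were 12.8%, 16.7% and 12.3%, and the share at 12 weeks was then close to that at 0 weeks.

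Outside ECs *Scarb1* was low, and at 2 and 12 weeks its level there rested on few UMIs in each class. FBs had 8.34 CPM (5.77 to 11.6; 34 UMIs), 11.4 CPM (3 UMIs) and 1.59 CPM (1 UMI), and a *Scarb1* UMI was found in 2.42% of healthy FBs at a median depth of 2974 UMIs, which is above that of ECs. No *Scarb1* UMI was found in 107 B cells, which allows a level of up to 18.2 CPM by the limit of 3 counts. The level in ECs was 18.9 times (13.4 to 27.6) that of FBs at 0 weeks, 15.4 times (5.25 to 74.9) at 2 weeks and 72.7 times (12.5 to 2920) at 12 weeks, where it rests on 1 UMI in FBs. Macrophages had 12.6, 19.6 and 10.8 CPM and mural cells 23.2, 5.85 and 19.1 CPM. The EC markers summed to 1791, 1625 and 1241 CPM in mural cells, and their part in the *Scarb1* level there was not tested. In neural cells at 12 weeks the level was 57.6 CPM from 2 UMIs, and its interval overlapped that of ECs. ECs held 78.9%, 95.9% and 82.9% of all *Scarb1* UMIs at 0, 2 and 12 weeks, and they were 29.7%, 81.4% and 40.2% of the cells.

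Within ECs *Scarb1* was carried by capillary cells, gated by markers such as *Car4*, *Rgcc* and *Cd300lg*. Capillary ECs had 191 CPM (169 to 215), 205 CPM (185 to 225) and 149 CPM (105 to 206), from 543, 1116 and 164 cells. In these cells alone the ratio to 0 weeks was 1.07 (0.917 to 1.25) at 2 weeks and 0.782 (0.539 to 1.11) at 12 weeks, and the interval of the second holds 1, which that of all ECs does not. This restriction to 1 gate was chosen after seeing the data. ECs of no gate had 166, 146 and 121 CPM.

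ECs of the arterial and venous gates had lower *Scarb1* levels than capillary ECs. Arterial ECs had 32.8 CPM (8.94 to 84.0; 4 UMIs) at 0 weeks, 90.02 CPM (53.4 to 142; 18 UMIs) at 2 weeks, against 17.1 CPM (1 UMI) at 12 weeks. Their intervals lay below those of capillary ECs in the first and second library, and just below in the third (upper bound 95.03 against a lower bound of 105). Venous ECs had 36.9 and 38.2 CPM, from 3 UMIs each, and none among 5 cells at 12 weeks. No *Scarb1* UMI was found in 39 lymphatic ECs, which allows up to 29.9 CPM, or in 16 cells of the endocardial gate, which allows up to 51.5 CPM.

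A small EC group marked by *Apln* and *Mest* (39, 21 and 3 cells) had the highest *Scarb1* level at 2 weeks. Its level was 135 CPM (82.7 to 209; 20 UMIs) at 0 weeks, against 323 CPM (177 to 542; 14 UMIs) at 2 weeks, with no UMI in the 3 cells at 12 weeks, and the ratio of 2 weeks to 0 was 2.39 (1.11 to 4.97). The interval at 2 weeks overlapped that of capillary ECs. Interferon-marked ECs had 86.5 CPM (4 UMIs) and 57.6 CPM (1 UMI), and proliferative ECs had 103 CPM (8 UMIs) at 0 weeks and no UMI in 5 cells at 2 weeks.

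**Figure D2:**
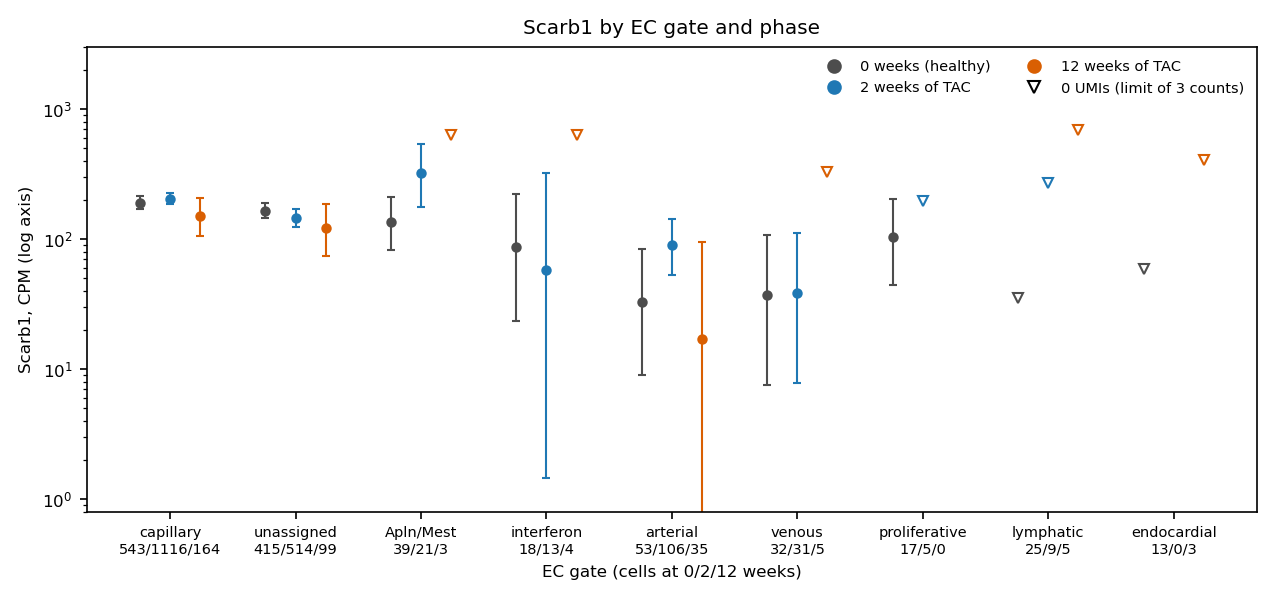
*Scarb1* level (CPM, log axis) in subtypes of ECs at 0, 2 and 12 weeks, with exact Poisson 95% intervals, and open downward triangles where no UMI was found, drawn at the level of 3 UMIs. Capillary ECs sit between 149 and 205 CPM and arterial ECs between 17.1 and 90.02 CPM.

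*Scarb2* (ENSMUSG00000029426, chromosome 5 from 92441314 to 92506833, minus strand), the lysosomal relative of *Scarb1*, was found in every class. Its level in FBs was 143 CPM (132 to 156; 585 UMIs) at 0 weeks, 254 CPM (197 to 323; 67 UMIs) at 2 weeks, against 202 CPM (168 to 240; 127 UMIs) at 12 weeks. Both TAC libraries lay above the healthy one, with ratios of 1.77 (1.36 to 2.28) and 1.41 (1.15 to 1.71). Neural cells had 128, 167 and 259 CPM, and their intervals overlapped those of FBs in all 3 libraries. ECs stayed between 57.7 and 63.5 CPM. Macrophages had 57.1, 88.1 and 108 CPM, and mural cells 43.0, 70.2 and 57.3 CPM, with intervals that overlapped between phases in both classes.

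*Lrp1* (ENSMUSG00000040249, chromosome 10 from 127538161 to 127621148, minus strand), the large endocytic receptor of *Apoe*-bearing particles, was an FB gene. FBs had 554 CPM (532 to 578; 2261 UMIs) at 0 weeks, 964 CPM (849 to 1090; 254 UMIs) at 2 weeks, against 637 CPM (576 to 702; 401 UMIs) at 12 weeks. The FBs at 2 weeks stood apart from both other libraries, with a ratio to 0 weeks of 1.74 (1.52 to 1.98), against 1.15 (1.03 to 1.28) at 12 weeks. A UMI was found in 74.8%, 77.8% and 75.6% of FBs, and in 41.8%, 62.9% and 53.0% after thinning to 1000 UMIs. Macrophages had 96.9 CPM (84.7 to 111), 215 CPM (156 to 289) and 184 CPM (107 to 294). Their ratios to 0 weeks were 2.22 (1.57 to 3.08) and 1.90 (1.09 to 3.11), so that both TAC libraries lay above the healthy one. Macrophages with UMIs of at least 2 genes of a list headed by *Folr2* and *Lyve1* had 105, 142 and 114 CPM. Their intervals overlapped, and the TAC levels rest on 6 and 5 UMIs. The other macrophages had 79.3 CPM (60.3 to 102), 235 CPM (166 to 322) and 246 CPM (127 to 430). The first group was 529 of 816 macrophages at 0 weeks and 15 of 97 at 2 weeks.

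In ECs *Lrp1* was low, and both *Lrp1* and the summed FB markers were lowest at 2 weeks there. The level in ECs was 10.5 CPM (36 UMIs), 2.03 CPM (7 UMIs) and 13.9 CPM (7 UMIs), with a ratio of 2 weeks to 0 of 0.193 (0.0727 to 0.441), and the healthy FB level was 52.8 times (38.1 to 75.7) that of ECs. The summed level of the 12 FB markers in ECs was 1073, 174 and 1208 CPM in the same libraries. Per 100 UMIs of the FB markers, ECs held 0.977 (0.683 to 1.36), 1.17 (0.467 to 2.42) and 1.15 (0.462 to 2.39) *Lrp1* UMIs, and FBs held 0.965 (0.925 to 1.01), 2.19 (1.93 to 2.48) and 1.06 (0.962 to 1.17). The intervals of ECs and FBs overlapped in every library, but those of ECs in both TAC libraries are wide and rest on 7 UMIs each. The part of FB transcripts in the *Lrp1* level of ECs was not tested. Mural cells had 65.3, 81.8 and 66.8 CPM, and neural cells 100.4, 104 and 57.6 CPM.

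*Apoe* (ENSMUSG00000002985, chromosome 7 from 19696109 to 19699188, minus strand), the ligand among the 7 genes, was lower in macrophages and higher in FBs at 12 weeks. In macrophages its level was 22344 CPM (22152 to 22538; 51628 UMIs) at 0 weeks, 19588 CPM (18986 to 20204; 4002 UMIs) at 2 weeks, against 14663 CPM (13893 to 15464; 1356 UMIs) at 12 weeks. The level was lower in each later library, with ratios of 0.877 (0.849 to 0.905) and 0.656 (0.621 to 0.693). Thinned to 1000 UMIs per cell the second ratio was 0.731, as a mean over cells 0.802 and with median-of-ratios scaling 0.687, each within 1.5-fold. In FBs it was 3001 CPM (2948 to 3055; 12241 UMIs), 2663 CPM (2470 to 2868; 702 UMIs) and 5701 CPM (5516 to 5890; 3590 UMIs). FBs at 12 weeks stood above both other libraries, with a ratio to 0 weeks of 1.90 (1.83 to 1.97), against 0.887 (0.821 to 0.958) at 2 weeks, which turned to 1.03 (0.949 to 1.11) when cells with over 10% mitochondrial UMIs were removed. The macrophage level was 7.45 times that of FBs at 0 weeks, 7.36 times at 2 weeks and 2.57 times at 12 weeks.

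The cells that supplied most *Apoe* transcripts differed between libraries. Macrophages held 73.6%, 65.2% and 22.7% of all *Apoe* UMIs at 0, 2 and 12 weeks, and FBs held 17.5%, 11.4% and 60.2%. These shares also carry how many cells of each class entered a library. The makeup of the tissue and the yield of the dissociation cannot be told apart in them.

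**Figure D3:**
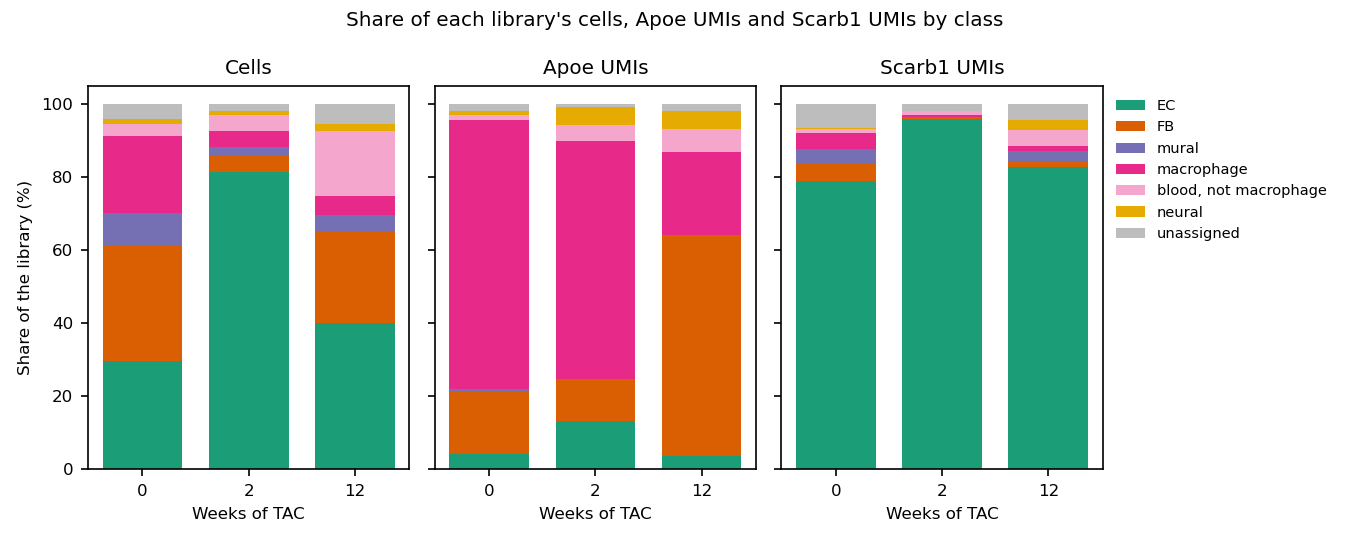
Percent of all cells, of all *Apoe* UMIs and of all *Scarb1* UMIs in each library that fell into each class, as stacked bars at 0, 2 and 12 weeks. Macrophages hold 73.6% of *Apoe* UMIs at 0 weeks and FBs hold 60.2% at 12 weeks, while ECs hold 78.9% to 95.9% of *Scarb1* UMIs.

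Because macrophages carried so much *Apoe*, its ratio to complement C1q, which is made by macrophages, was measured in each class. Macrophages had 1.44, 1.496 and 1.03 *Apoe* UMIs per UMI of *C1qa*, *C1qb* and *C1qc*. FBs had 30.4, 234 and 116 per C1q UMI, neural cells 44.0, 291 and 302, and ECs 10.5, 16.1 and 7.93. Mural cells had 2.48, 4.50 and 6.33, and blood cells other than macrophages 3.58, 4.38 and 5.83. Both were nearer to macrophages than the other classes were. *C1qa*, *C1qb* and *C1qc* are among the 9 markers that gated macrophages within the blood class. The ratios of macrophages and of the other blood cells are therefore in part set by the gate. When FBs with any C1q UMI were left out, a step chosen after seeing the data, *Apoe* in the remaining 979, 96 and 168 FBs was 3149.8, 2859 and 5827 CPM. The FBs left in may still hold other macrophage transcripts, since the 9 macrophage markers summed to 247, 129 and 224 CPM in all FBs, and their part was not tested.

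**Figure D4:**
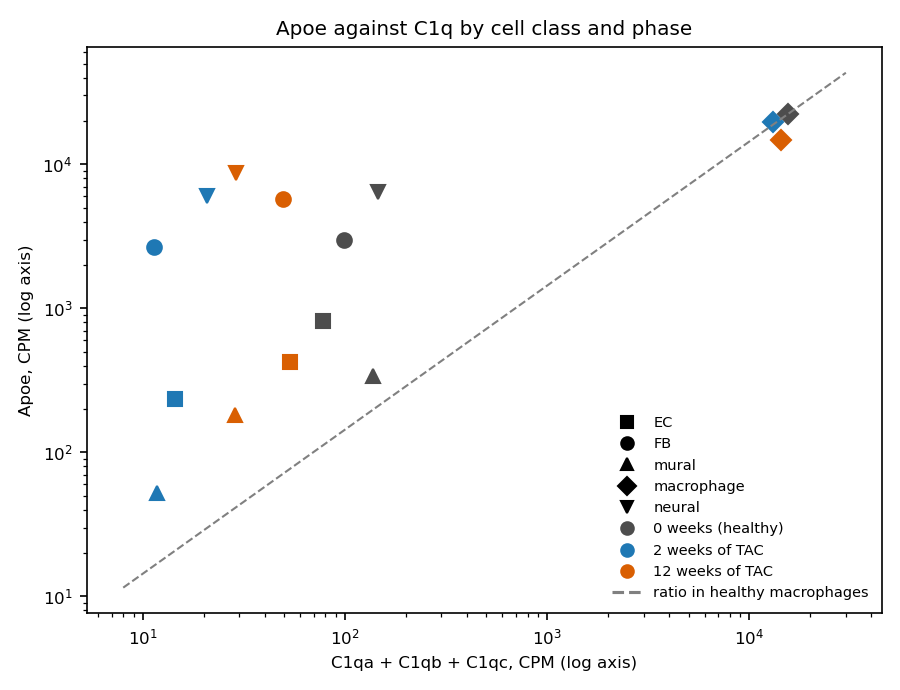
*Apoe* level against the summed level of *C1qa*, *C1qb* and *C1qc* (CPM, both axes log), with 1 point per class and library and no intervals. The dashed line marks the *Apoe* to C1q ratio of healthy macrophages, 1.44. FBs and neural cells lie far above the line at every phase, and the ratios of mural cells were between 2.48 and 6.33.

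*Apoe* was uneven among FBs. A UMI was found in 66.2%, 46.5% and 76.1% of FBs, and in 48.1%, 34.3% and 65.9% after thinning to 1000 UMIs. The median FB had 4.56, 0 and 17.4 *Apoe* UMIs per 10000, and the smallest set of cells that held at least 50% of the *Apoe* UMIs of FBs was 73 of 1238 cells, 5 of 99 cells and 13 of 197 cells. At 2 weeks the level of FBs therefore rested on few cells. Per 100 UMIs of the FB markers, FBs held 5.22 (5.13 to 5.32), 6.06 (5.61 to 6.54) and 9.53 (9.21 to 9.86) *Apoe* UMIs, so that against these markers the FBs at 2 weeks were above the healthy ones and against all UMIs below them.

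The FB subtypes, gated by pairs of named markers and others of their lists, differed widely in *Apoe*. FBs of the *Wif1*/*Comp* gate, whose namesake genes code for a secreted Wnt inhibitor and a cartilage matrix protein, had the highest level in each library, with 11490, 9343 and 17635 CPM from 50, 6 and 12 cells. FBs of the *Pi16*/*Cd248* gate, a group of adventitial type, had 765 CPM (193 cells) at 0 weeks and 813 CPM (11 cells) at 12 weeks, with no UMI in 6 cells at 2 weeks, where 3 counts would give 399.6 CPM. The ratio of 12 weeks to 0 was 1.53 (1.40 to 1.68) in the former and 1.06 (0.668 to 1.61) in the latter.

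Other FB gates lay between these levels. *Postn*/*Thbs4* FBs, the gate of activated matrix-producing FBs, had 1812, 457 and 4774 CPM from 109, 28 and 21 cells, with ratios of 0.252 (0.177 to 0.349) at 2 weeks and 2.64 (2.36 to 2.94) at 12 weeks. *Inmt*/*Gdf10* FBs had 3114 CPM (16 cells) at 0 weeks and 10838 CPM (8 cells) at 12 weeks, a ratio of 3.48 (2.82 to 4.31). *Cxcl14*/*Hsd11b1* FBs had 2791 and 3689 CPM, a ratio of 1.32 (1.11 to 1.56), and these last gates held no cell at 2 weeks. FBs of no gate had 3361, 3474 and 5222 CPM. At 12 weeks the ratio to 0 weeks was above 1 in all 5 gates and in FBs of no gate, with the interval of *Pi16*/*Cd248* FBs alone holding 1.

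**Figure D5:**
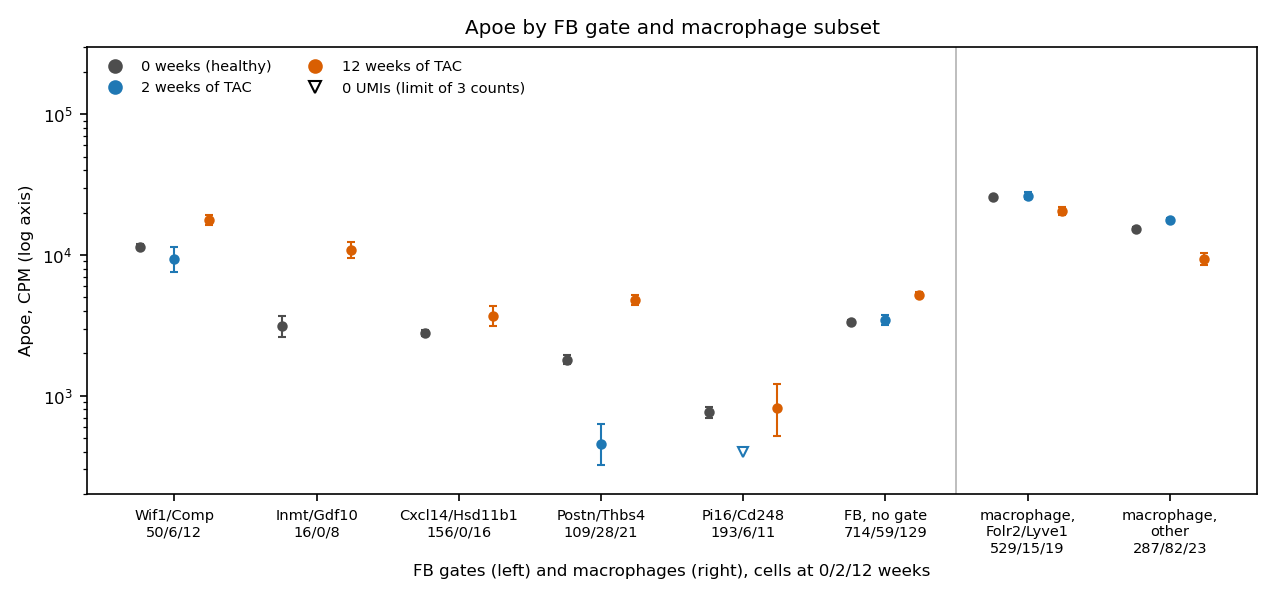
*Apoe* level (CPM, log axis) in subtypes of FBs and macrophages at 0, 2 and 12 weeks, with exact Poisson 95% intervals. Open downward triangles mark groups where no UMI was found, drawn at the level of 3 UMIs. Among FBs the *Wif1*/*Comp* gate is highest, at 9343 to 17635 CPM.

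Macrophages were divided by a list headed by *Folr2* and *Lyve1*, markers of tissue-resident macrophages. Those with UMIs of at least 2 of its 7 genes (529, 15 and 19 cells) had 25645, 26439 and 20571 CPM of *Apoe*, and the others (287, 82 and 23 cells) had 15400, 17796 and 9358 CPM. At 2 weeks both groups were at or above the healthy level, with ratios of 1.03 (0.971 to 1.09) and 1.16 (1.11 to 1.20), while macrophages as a whole were at 0.877. The *Folr2*/*Lyve1* group was 529 of 816 macrophages at 0 weeks and 15 of 97 at 2 weeks, and the gate needs UMIs of its genes, so that shallower cells pass it less easily (medians of 2638, 1631 and 1379 UMIs for all macrophages). At 12 weeks both groups were below the healthy level, with ratios of 0.802 (0.7501 to 0.857) and 0.608 (0.552 to 0.667). Monocytes had 4725, 2192 and 3870 CPM.

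In ECs *Apoe* was lower in both TAC libraries. The level was 822 CPM (792 to 853; 2821 UMIs) at 0 weeks, 234 CPM (218 to 250; 806 UMIs) at 2 weeks, against 426 CPM (371 to 487; 214 UMIs) at 12 weeks, with ratios of 0.284 (0.263 to 0.308) and 0.518 (0.449 to 0.596). B cells, which should lack *Apoe*, had 443 CPM (284 to 660) at 0 weeks and 353 CPM (251 to 482) at 12 weeks. A UMI was found in 34.3% and 34.7% of B cells at median depths of 1408 and 1076.5 UMIs, and in 57.7%, 21.9% and 37.7% of ECs at 0, 2 and 12 weeks. The intervals of ECs and B cells overlapped at 12 weeks and were apart at 0 weeks.

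The capillary level, 450.1 CPM (416 to 487) at 0 weeks, 188 CPM (169 to 208) at 2 weeks and 460.04 CPM (379 to 553) at 12 weeks, overlapped that of B cells in both libraries where these were found. At 2 weeks no B cell was gated, and the level there has no such value beside it. The ratio of 12 weeks to 0 in capillary ECs was 1.02 (0.830 to 1.25), where that of all ECs was 0.518. Of the healthy ECs, 13 cells of the endocardial gate had 7957 CPM (405 UMIs, with a UMI in all 13), and venous ECs had 2409 CPM (2084 to 2771), above the B cell level. The endocardial gate also held FB markers at 4597 CPM over all libraries, where capillary ECs held 484 CPM. The summed FB markers in ECs were 1073, 174 and 1208 CPM and the summed macrophage markers 160.0, 64.6 and 89.6 CPM, and their part in the *Apoe* level was not tested.

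Neural cells, a class gated by glial markers, had 6427 CPM (704 UMIs), 6060 CPM (291 UMIs) and 8703 CPM (302 UMIs) of *Apoe*, with a UMI in 98.1%, 92.3% and 100% of the cells. The ratio to 0 weeks was 0.943 (0.820 to 1.08) at 2 weeks and 1.35 (1.18 to 1.55) at 12 weeks. FB markers in the neural class summed to 5359, 4560 and 5533 CPM, far below the 57456, 43960 and 59824 CPM of FBs, while *Apoe* stood above its level in FBs. Mural cells had 340 CPM (396 UMIs), 52.6 CPM (9 UMIs) and 181 CPM (19 UMIs), with ratios of 0.155 (0.0702 to 0.297) and 0.533 (0.318 to 0.844). C1q in mural cells was 137, 11.7 and 28.6 CPM in the same libraries, and its part was not tested.

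*Abca1* (ENSMUSG00000015243, chromosome 4 from 53030787 to 53159895, minus strand), whose product loads cholesterol onto lipid-poor apolipoproteins, had 113 CPM (100.1 to 128; 262 UMIs), 137 CPM (91.1 to 198; 28 UMIs) and 86.5 CPM (37.3 to 170.5; 8 UMIs) in macrophages, with overlap among all 3. ECs had 23.3, 29.9 and 21.9 CPM, also with overlap. FBs had 19.6 CPM (80 UMIs), 26.6 CPM (7 UMIs) and 36.5 CPM (23 UMIs), with a ratio of 1.86 (1.12 to 2.99) at 12 weeks. Mural cells had 17.2 and 5.85 CPM and no UMI at 12 weeks, where 3 counts would give 28.6 CPM.

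*Abcg1* (ENSMUSG00000024030, chromosome 17 from 31057675 to 31117988, plus strand), the partner that passes cholesterol to HDL, was the member with the fewest UMIs. ECs had 13.7 CPM (10.1 to 18.2; 47 UMIs), 22.3 CPM (17.6 to 27.9; 77 UMIs) and 27.9 CPM (15.2 to 46.7; 14 UMIs). Both TAC libraries were above the healthy one, with ratios of 1.63 (1.12 to 2.40) and 2.03 (1.03 to 3.76). Macrophages had 13.4, 24.5 and 10.8 CPM, from 31, 5 and 1 UMIs. FBs had 7, 0 and 1 UMIs, and no UMI was found in neural cells.

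*Pltp* (ENSMUSG00000017754, chromosome 2 from 164839518 to 164857711, minus strand) codes for the phospholipid transfer protein that remodels HDL. Macrophages had 529 CPM (500.1 to 559.8; 1223 UMIs), 367 CPM (289 to 460.1; 75 UMIs) and 541 CPM (401 to 713; 50 UMIs), and only the library at 2 weeks was lower, at a ratio of 0.694 (0.542 to 0.876). ECs had 154 CPM (141 to 168), 163 CPM (149.7 to 177) and 247 CPM (205 to 294), and FBs 36.8 CPM (150 UMIs), 41.7 CPM (11 UMIs) and 76.2 CPM (48 UMIs). At 12 weeks the ratio to 0 was 1.60 (1.31 to 1.95) in ECs, or 1.48 with median-of-ratios scaling, and 2.07 (1.47 to 2.89) in FBs.

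*Abca1*, *Apoe* and *Pltp* were the members at least 1.5-fold higher in FBs at 12 weeks, and the bases just before their start sites are shown for that reason. The sequences below are the 250 bases upstream of the RefSeq start (GRCm38.p6, minus strand, 5′ to 3′), at chr4:53159896-53160145 for *Abca1*, chr7:19699189-19699438 for *Apoe* and chr2:164857709-164857958 for *Pltp*. Capitals mark GGGCGG on either strand, the GC box bound by Sp1.
Abca1: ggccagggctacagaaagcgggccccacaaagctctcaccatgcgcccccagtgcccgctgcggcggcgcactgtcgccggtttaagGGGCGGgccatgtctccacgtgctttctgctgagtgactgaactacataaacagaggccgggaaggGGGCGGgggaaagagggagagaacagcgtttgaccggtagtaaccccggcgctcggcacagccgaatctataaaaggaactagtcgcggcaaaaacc
Apoe: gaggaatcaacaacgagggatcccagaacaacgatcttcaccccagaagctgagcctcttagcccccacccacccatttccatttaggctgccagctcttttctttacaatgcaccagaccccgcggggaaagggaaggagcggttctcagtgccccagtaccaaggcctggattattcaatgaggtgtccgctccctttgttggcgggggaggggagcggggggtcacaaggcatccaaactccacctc
Pltp: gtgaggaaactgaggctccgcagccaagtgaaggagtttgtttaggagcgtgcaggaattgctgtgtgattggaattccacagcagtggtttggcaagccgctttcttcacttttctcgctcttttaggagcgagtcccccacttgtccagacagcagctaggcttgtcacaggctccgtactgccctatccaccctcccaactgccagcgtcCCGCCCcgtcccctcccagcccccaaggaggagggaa
The box occurred at 2 places in *Abca1* and 1 place in *Pltp*, and was not found in *Apoe*. *Apoe* had other RefSeq starts that are not shown, and no box was found before those either. In *Lrp1* and *Scarb2*, which were not 1.5-fold higher in FBs at 12 weeks, the box also occurred at 1 place each. It is thus not particular to the genes shown. RefSeq promoter windows matched 5 of the 7 genes, *Scarb1* and *Abcg1* being without an entry. Over 32851 promoter windows of 300 bases, 35.7% held GGGCGG. Both strands were searched for exact AGGTCA (16.3% of windows), a pair of AGGTCA 4 bases apart (0.0152%) and TCACNCCAC (1.24%). The pair is the perfect form of the DR4 element of liver X receptors, and TCACNCCAC stands for the sterol regulatory element. None of these exact sequences was found in the 5 matched genes. Elements that differ from them by some bases were not searched for, so whether a gene holds such an element was not tested.

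Read against all genes, the members that differed by at least 1.5-fold from 0 weeks were counted in the 4 classes with most cells. Among ECs 3 of 7 members passed at 2 weeks (*Abcg1* higher, *Apoe* and *Lrp1* lower), where 27.3% of all genes with at least 20 UMIs did, and 3 of 7 at 12 weeks (*Abcg1* and *Pltp* higher, *Apoe* lower), where 38.5% did. Among FBs 2 of 6 passed at 2 weeks (*Scarb2* and *Lrp1* higher; background 46%) and 4 of 6 at 12 weeks (*Apoe*, *Abca1* and *Pltp* higher, *Scarb1* lower; background 32.1%). Among macrophages 4 of 7 passed at 2 weeks (*Scarb1*, *Scarb2*, *Lrp1* and *Abcg1* higher; background 48%) and 3 of 7 at 12 weeks (*Scarb2* and *Lrp1* higher, *Apoe* lower; background 51%). Among mural cells 4 of 5 passed at 2 weeks (*Scarb2* higher, *Scarb1*, *Apoe* and *Abca1* lower; background 41.4%) and 2 of 5 at 12 weeks (*Apoe* and *Abca1* lower; background 52.6%). The later level of *Scarb1* in FBs at 12 weeks, and of *Scarb1* and *Abca1* in mural cells at 2 weeks, was that of 1 UMI each. *Abca1* in mural cells at 12 weeks had 0 UMIs in 36 cells. There 3 counts would give 28.6 CPM, above the healthy level, so this call does not show a fall. With median-of-ratios scaling *Scarb1* (1.45) and *Scarb2* (1.43) in macrophages and *Scarb2* in mural cells (1.36) were within 1.5-fold at 2 weeks, and *Pltp* in macrophages (0.645) was past it. At 12 weeks *Apoe* in macrophages (0.687) and *Pltp* in ECs (1.48) were within 1.5-fold under this scaling.

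Around the receptors, 16 other scavenger and lipoprotein receptors were listed, led in ECs by *Cd36*, which takes up fatty acids. *Cd36* had 1887, 2398 and 2064 CPM in ECs. In ECs 2 of 10 measured receptors were higher and 1 lower at both times, beside 27.3% and 38.5% of all genes past 1.5-fold, among them *Lrp5* higher and *Lsr* lower at 2 weeks, and *Scarf1* and *Lsr* higher at 12 weeks. In FBs 5 of 10 were higher and 3 lower at 2 weeks (46% of all genes past the fold), among them *Lrp10*, *Lrp6*, *Lrp5* and *Sorl1* higher beside *Lrp1*, and 4 were higher and 1 lower at 12 weeks (32.1%). Macrophages had *Stab1*, a scavenger receptor of this cell type, at 250.2, 206 and 368 CPM.

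Of the apolipoprotein and lipase genes, 0 of 5 measured in ECs passed 1.5-fold at 2 weeks, where 27.3% of all genes did, and 2 of 4 at 12 weeks, where 38.5% did. *Gpihbp1*, the capillary anchor of lipoprotein lipase, had 1191, 1748 and 1481 CPM in ECs, and *Lpl*, the lipase itself, had 508, 539 and 488 CPM there. In FBs *Lpl* was lower in both TAC libraries, at 381, 144 and 208 CPM, with ratios of 0.378 (0.266 to 0.521) and 0.545 (0.453 to 0.652). *Clu*, the apolipoprotein J gene, had 287, 193 and 892 CPM in ECs, a ratio of 3.10 (2.77 to 3.47) at 12 weeks.

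The genes of cholesterol efflux and its control by liver X receptors (13 listed) stood beside *Abca1*, *Apoe* and *Pltp* in FBs at 12 weeks. There 6 of 12 measured genes were higher and 0 lower (*Cyp27a1*, *Srebf1*, *Abca2*, *Ch25h*, *Abca3* and *Abca7*), where 1660 of 10160 genes were higher and 32.1% passed either way. The median log2 ratio of the list was 0.57, and that of all genes 0.023. *Cyp27a1*, which makes 27-hydroxycholesterol, had 51.5, 30.3 and 87.3 CPM in FBs, and *Srebf1* had 21.3, 49.3 and 38.1 CPM. *Nr1h3*, the gene of LXRα, had 22.8, 11.4 and 27.0 CPM. At 2 weeks 4 of 12 were higher and 2 lower (46% of all genes past the fold). ECs had 3 of 11 higher and 0 lower at 2 weeks (27.3%), and 3 of 9 higher and 2 lower at 12 weeks (38.5%).

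Of 20 cholesterol synthesis genes measured in FBs, 0 were higher and 8 lower at 12 weeks, among them *Fdps*, *Msmo1*, *Sc5d*, *Cyp51*, *Mvk* and *Mvd*, while 12 stayed within 1.5-fold. The median log2 ratio of this list was -0.48, and 1598 of 10160 genes were lower in FBs at 12 weeks. At 2 weeks 3 were higher and 7 lower, beside 46% of all genes past the fold. *Fdps*, which makes farnesyl diphosphate, had 53.9, 22.8 and 31.8 CPM in FBs, from 220, 6 and 20 UMIs. In macrophages 8 of 11 were higher and 1 lower at 2 weeks (48% of all genes past the fold), and 6 of 10 higher and 2 lower at 12 weeks (51%). *Insig1*, which holds SREBP in the endoplasmic reticulum and is itself its target, had 41.1, 83.2 and 173 CPM in macrophages. These macrophage levels rest on 95, 17 and 16 UMIs. At 0 weeks 16 of the 23 synthesis genes were highest in neural cells, by level alone. The 52 neural cells of that library held 109542 UMIs in all, so several of these levels rest on few UMIs. The lead over FBs was small for *Hsd17b7* (18.3 against 15.7 CPM) and *Insig1* (82.2 against 76.7 CPM), and wide for *Hmgcs1* (192 against 55.9 CPM).

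Of 13 genes of lysosomes and their cholesterol, 8 were highest in macrophages at 0 weeks. In FBs 5 were higher and 1 lower at 2 weeks, 6 of 13 beside 46% of all genes (*Psap*, *Ctsd*, *Lipa* and *Npc1* among the higher, *Nceh1* lower) and 2 higher and 0 lower at 12 weeks (32.1%). *Psap*, which codes for the precursor of the saposins, had 552, 884 and 837 CPM in FBs. In ECs 1 of 13 was higher and 2 lower at 2 weeks (27.3%), and 0 of 13 passed at 12 weeks (38.5%).

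The study follows signals from FBs to ECs, so the *Apoe* level of a sending class was multiplied by the *Scarb1* level of ECs and set to 1 at 0 weeks. With CPM and FBs as senders the product was 0.986 at 2 weeks and 1.39 at 12 weeks. With mean UMIs per cell, which carry the depth of the library, it was 0.509 and 0.716, so the direction at 12 weeks turned with the scale. Neither product is the measure of the study, which scaled its averaged ligand and receptor matrices by their own sums. The study names *Scarb1* among the FB to EC interactions that increased toward heart failure. With macrophages as senders the product in CPM was 0.974 and 0.480, below 1 at both times. Neural cells gave 1.05 and 0.990.

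*Thbs1*, another ligand listed beside *Scarb1*, had 339, 668 and 319 CPM in FBs, a ratio of 1.97 (1.67 to 2.31) at 2 weeks. Its product with *Scarb1* of ECs, in CPM and set to 1 at 0 weeks, was 2.19 at 2 weeks and 0.688 at 12 weeks. With mean UMIs per cell this product was 1.13 and 0.355. *Cav1*, the caveolin gene of the same list, had 1506, 1879 and 1600.04 CPM in ECs, and *Pdzk1*, the adaptor of this receptor in liver, had at most 2 UMIs in ECs and in FBs of any library.

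Over 14 groups of class and library and 7912 genes, the genes nearest to *Scarb1* in pattern by Pearson's r of log2(CPM + 10) were *Wscd1* (0.95), *Apol10b* (0.94), *Nts* (0.94), *Nepn* (0.94) and *Thsd1* (0.94). Those nearest to *Apoe* were *Hexa* (0.95), *Ifi27l2a* (0.94), *P2rx4* (0.93), *Hn1* (0.92) and *Creg1* (0.92), of which *Hexa* codes for a lysosomal enzyme. The r between *Scarb1* and *Apoe* was -0.37, and that between *Abca1* and *Apoe* was 0.79. Groups of 1 library share its depth and free RNA, and these values are a description.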

How the data were processed

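Non-CMs were measured by 3′ droplet scRNA-seq in 1 library per phase. The authors counted UMIs per gene and cell with Cell Ranger 2.0.0 on mm10, per the labels, and deposited these raw counts without normalization. Cells with at least 200 genes were kept. Each marker list was scored as its mean log value, divided by the mean of the top 1% of cells, and a cell needed 2 markers and a score 1.5 times the next. Of 193 markers, 190 were found. No doublet caller was run, and removal of the 5% of cells with most UMIs was an alternative. Levels were CPM from summed UMIs with exact Poisson intervals, ratios had conditional binomial intervals, and shares Clopper-Pearson intervals. A level of 0 was given the limit of 3 counts. Calls were ratios of at least 1.5-fold with at least 20 UMIs over both libraries. The genes named were the 7 members, the members of 6 pathway lists (79 of 80 genes found) and the 5 genes nearest in pattern. Members and lists were chosen with earlier results of these data known. Alternatives covered the gate, genes per cell, mitochondrial share, depth, averaging, CM transcripts, scaling and thresholds. The scripts were tested on simulated data. Python 3.11.15, numpy 2.4.6, scipy 1.17.1, pandas 2.3.3, scanpy 1.11.5 and leidenalg 0.10.2 were used. Coordinates were matched by Ensembl identifier to GRCm38. Some genes of the marker and pathway lists are counted but not reported here by name.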

Additional observations from a re-analysis of the deposited data

Results flagged for a closer look

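*Lrp1* was higher at 2 weeks than at 0 weeks in FBs and macrophages and lower in ECs. The ratio was 1.74 (1.52 to 1.98) in FBs and 2.22 (1.57 to 3.08) in macrophages, against 0.193 (0.0727 to 0.441) in ECs, where it rests on 7 and 36 UMIs. The FB markers summed in ECs were lower at 2 weeks too, at 174 against 1073 CPM, and their part was not tested. Among macrophages the *Folr2*/*Lyve1* group had 105 CPM at 0 weeks and 142 CPM (6 UMIs) at 2 weeks, with overlap. The other macrophages had 79.3 and 235 CPM, with intervals apart.

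*Apoe* was higher at 12 weeks than at 0 weeks in FBs and neural cells and lower in the other classes. The ratio was 1.90 (1.83 to 1.97) in FBs and 1.35 (1.18 to 1.55) in neural cells. It was 0.518 (0.449 to 0.596) in ECs, 0.533 (0.318 to 0.844) in mural cells and 0.656 (0.621 to 0.693) in macrophages. In capillary ECs alone it was 1.02 (0.830 to 1.25). C1q was lower as well, at 78.1 CPM at 0 weeks and 53.7 CPM at 12 weeks in ECs, and at 137 and 28.6 CPM in mural cells. With 1 library per phase these opposite directions were seen in each class's only pair of libraries, and the difference between classes was not tested for either gene.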

How the results depend on the processing

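Ratios were recomputed under 155 alternatives, of which 121 moved by less than the counting interval and 154 kept their sign. The exception was *Apoe* in FBs at 2 weeks, with a log2 ratio of 0.037 when cells with over 10% mitochondrial UMIs were removed, and -0.33 as a mean over cells. *Scarb1* in ECs at 2 weeks was 0.41 when thinned to 1000 UMIs, and at 12 weeks its ratio stayed between 0.674 and 0.914. *Apoe* in FBs at 12 weeks was 0.87 with a margin of 3, 0.74 thinned and 0.68 as a mean over cells. *Apoe* in macrophages at 2 weeks was -0.044 with a margin of 3, -0.26 with Leiden clusters, -0.35 thinned, -0.40 as a mean over cells and -0.30 with median-of-ratios scaling, and at 12 weeks it was -0.70 without a margin, -0.72 with at least 500 genes per cell, -0.45 thinned and -0.32 as a mean over cells. *Lrp1* in FBs at 12 weeks was 0.46 without the 5% of cells with most UMIs, 0.46 thinned and 0.43 as a mean over cells. *Apoe* in macrophages against FBs at 0 weeks was 2.86 without a margin, 2.94 with a margin of 3, 2.83 without the deepest cells, 2.83 thinned, 2.87 as a mean over cells and 3.04 with median-of-ratios scaling. At 2 weeks it was 3.01 with a margin of 3, 2.71 without mitochondrial cells, 2.72 thinned and 2.74 with median-of-ratios scaling, and at 12 weeks 1.26 without a margin, 1.24 with 500 genes, 1.27 without mitochondrial cells, 1.64 thinned, 1.87 as a mean over cells and 1.21 with median-of-ratios scaling. The causes were not tested. *Scarb1* in ECs against FBs gave no thinned value at 2 and 12 weeks, nor one at 12 weeks without the 5% of cells with most UMIs, since no FB kept a *Scarb1* UMI. Of 32 alternatives for counts of members, 23 stayed within 1.5 times. At 2-fold the count was 1 in ECs, 2 in FBs, 1 in mural cells and 0 in macrophages at 12 weeks, and 0 in FBs and 1 in macrophages at 2 weeks. With at least 100 UMIs it was 1 in mural cells at both times and 2 in macrophages at 2 weeks. No paired analysis was possible because each phase was 1 library, so that the phases share fewer than 2 replicate numbers. At 12 weeks the 318 ECs held 58 *Scarb1* UMIs and 14 *Abcg1* UMIs, which limits these ratios.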

Other observations

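*Apod*, which codes for an apolipoprotein of the lipocalin family and is known as a glial gene, had 55.7, 918 and 71.5 CPM in FBs at 0, 2 and 12 weeks. The ratio of 2 weeks to 0 was 16.5 (13.7 to 19.9) in FBs, and the 242 UMIs at 2 weeks came from 99 cells. *Thbs1* had 18.6, 470 and 119 CPM in macrophages, from 43, 96 and 11 UMIs, a ratio of 25.2 (17.4 to 37.1) at 2 weeks. Both are values of single libraries and were not tested.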
